A study of Homo sapiens with 47 samples.

Results

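The clusters where PTBP1 touched RNA were compared between the lowest input of a cell-number titration, 1000 cells, and the next input, 10000 cells. The members are all clusters of the deposited list for each input, 30911 at 1000 cells and 248168 at 10000 cells, together 279079 of the 2232378 sites in the 17 lists used here. Both groups are Lenti-X 293T cells, a derivative of the human embryonic kidney line HEK293 made for lentivirus packaging, that stably express the protein under study, and both were irradiated with UV-C light on ice and treated with RNase I. In uSpyCLIP-seq the light crosslinks the protein to the RNA it touches, and the complex is then captured through the covalent bond that SpyTag forms with SpyCatcher. Each group has 2 libraries and 1 list. The labels do not say how the introduced protein compares in level with the cells' own PTBP1, nor whether the 2 libraries of a group came from separate cultures.

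PTBP1, the polypyrimidine tract binding protein, binds runs of pyrimidines in pre-mRNA, mostly in introns near exons, and is best known for causing exons to be skipped. It also binds 3′ untranslated regions and structured RNAs in the cytoplasm. Its known targets include the transcripts of its own paralogs, PTBP2 and PTBP3, and PKM, whose mutually exclusive exons it helps to choose.

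The lists give where each cluster lies on hg38 and on which strand, with neither a score nor read counts. The depth behind a cluster is therefore unknown, no spread between replicates exists, and no p-value is given. Values in parentheses after a share are its 95% Clopper-Pearson (exact binomial) bounds, for counting error alone. Whether a cluster was lost because fewer cells were used or because fewer reads were sequenced cannot be told apart. No list from cells without crosslinking was used here. Of 10 genes that mark other cell types, such as ALB, HBB and PTPRC, 0 held a cluster in either list, and of 10 genes associated with HEK293 cells 7 held one at 10000 cells and 3 of those also at 1000 cells.

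Clusters that lie in the RefSeq promoter windows, which run from 250 bases before to 50 bases after a gene's start, show what the sites look like, since sequence was at hand only there. These windows held 105 clusters of the 1000-cell list. The 8 widest that were also found at 10000 cells, 1 per gene, are printed as the transcribed strand (GRCh38.p14), with 12 bases on each side of the midpoint and the cluster in capitals.

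C6orf62 (chr6:24719348-24719372, minus): ttttgcaCTTTTCTCTAtgctcacc
TASOR (chr3:56664064-56664088, minus): ttatgtcTCTTTTTATAgcactgaa
ADAMTSL4-AS1 (chr1:150574759-150574783, minus): ttctgtttGTCTTACGCttctctca
LIMD1-AS1 (chr3:45688999-45689023, minus): ctaggttcGACTCCTGGctggctcg
MLF2 (chr12:6753078-6753102, minus): ccgaggggGCCGTACGGaggtggca
PTMA (chr2:231708539-231708563, plus): tctgaaaaGCCATCTTTgcattgtt
AURKB (chr17:8210223-8210247, minus): ctcctcccCCTTTCTCtctaaggat
UBE2D3 (chr4:102826964-102826988, minus): ccccttgcCTTTCTTTgccctagtg

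Each site is labelled by the gene whose window holds it, and it can lie before that gene's start and in another gene. The site labelled ADAMTSL4-AS1, for example, lies before that start and within the span of MCL1 on the same strand. Of these sites, 7, all but the one labelled MLF2, hold more pyrimidines than purines. Those labelled C6orf62, ADAMTSL4-AS1, AURKB and UBE2D3 hold 20 pyrimidines in 25 bases each. The widest clusters that were found at 1000 cells and not at 10000 cells, 8 of 6 nt each, are shown for comparison.

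ADAT2 (chr6:143442722-143442746, minus): tctttttaaTTCCCAttgcaaaatc
ARNT (chr1:150876594-150876618, minus): gctcctcccACTGGGggggggggtg
DENND4B (chr1:153945449-153945473, minus): ttagcaggaCTGCACatcctggaac
GTPBP2 (chr6:43627512-43627536, minus): tgagtttttCTGTTCctctcagccc
LARP4 (chr12:50400952-50400976, plus): ggcctgtgagCCAGTTggagttgcg
LINC02931 (chrX:137564081-137564105, minus): actttctccTTTATTtcctctcttc
SPICE1-CFAP44 (chr3:113514996-113515020, minus): cagggctacCAAAAGggtggggaga
ZNF687 (chr1:151282260-151282284, plus): gggaggagagGGAGTGgggaggccg

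These ranged from 23 pyrimidines of 25 bases in the site labelled LINC02931 to 3 in the one labelled ZNF687. Over the 61 promoter-window clusters of the 1000-cell list that overlapped one at 10000 cells, 70.4% of the bases in the 25-base stretch were pyrimidines and 38.8% were T. Over the 44 that did not overlap one, 57.1% were pyrimidines and 24.7% were T. All 25-base stretches of the windows averaged 49.7% pyrimidines and 21.3% T. The tetramers searched are pyrimidine words that PTBP1 is known to bind. One is TCTT, and another, shifted by a base, is CTTT. The remaining pair begins with TTCT, which shares bases with them, and ends with the alternating word CTCT, and all can overlap one another. At least 1 of these 4 was found on the transcribed strand in 47 of the 61 overlapping stretches (77.0%) and 19 of the 44 others (43.2%), against 26.9% of all stretches. On the opposite strand the same tetramers were found in 13.1% and 20.5%, against 27.5% of all stretches. The 583 clusters of the 10000-cell list in these windows had 63.0% pyrimidines, and 57.5% of their stretches held a tetramer. The recurring clusters had the highest mean pyrimidine content, and those absent at 10000 cells lay between them and the windows as a whole. A promoter window is a small and unusual part of a gene, so these values describe those windows only.

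With 12.5% as many clusters as at 10000 cells, the 1000-cell list still covered 66.3% as many genes, 6835 against 10313. It covered 165 kb against 1631 kb. Its clusters were narrower, with a median width of 5 nt against 6 nt, and 28.9% of them had the smallest width of 3 nt, against 21.3%. Clusters of 10 nt or more made up 5.29% at 1000 cells and 12.5% at 10000 cells, and clusters of 30 nt or more numbered 61 and 1928. The median gap between neighbouring clusters was 2809 nt at 1000 cells and 89 nt at 10000 cells.

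Of the 10313 genes with a cluster at 10000 cells, 5849 kept at least 1 at 1000 cells, or 56.7% (55.8 to 57.7). The share of genes kept rose with their number of clusters at 10000 cells. Genes with 1 cluster there were kept in 23.3% of cases, those with 5 to 9 in 50.8%, those with 25 to 49 in 85.3% and those with 100 or more in 98.5% (473 of 480). The median gene held 2 clusters at 1000 cells and 8 at 10000 cells, and 42.7% of the genes at 1000 cells rested on a single cluster, against 19.2%. Per length of gene, the 5849 genes present in both lists had a median density of 0.532 clusters per 10 kb at 1000 cells (quartiles 0.213 and 1.4) and 4.53 at 10000 cells (quartiles 1.36 and 10.9).

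HELLS, a chromatin remodelling ATPase that supports DNA methylation, had the most clusters at 1000 cells. It lies on the plus strand at chr10:94545788-94613905 and held 146 clusters at 1000 cells and 409 at 10000 cells, a density of 21.4 and 60.0 per 10 kb. Its share of the list was 2.87 times higher at 1000 cells (2.36 to 3.47), and 135 of the 146 clusters (92.5%) overlapped one at 10000 cells. SLIT2, the secreted guidance ligand of ROBO receptors, followed with 140 clusters against 474, a share 2.37 times higher (1.95 to 2.87). ANKRD17, an ankyrin repeat protein, held 118 against 585, and SRPK1, a kinase of SR splicing factors, held 108 against 374.

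The next leaders were of several kinds. FTX and JPX, long noncoding RNAs of the X-inactivation centre, held 106 and 96 clusters at 1000 cells and 703 and 351 at 10000 cells. RBM26, an RNA-binding protein, held 106 against 370, and ENAH, an actin regulator, 95 against 307. The densest leaders were the shortest genes. IRS4, an insulin receptor substrate of 16618 nt, held 94 clusters against 134, a density of 56.6 per 10 kb against 80.6. DDX17, an RNA helicase of 22874 nt, held 99 against 168, or 43.3 against 73.4 per 10 kb. Their shares of the list were 5.63 times (4.28 to 7.39) and 4.73 times (3.65 to 6.1) higher at 1000 cells. In all 10 leaders at least 66.3% of the 1000-cell clusters overlapped one at 10000 cells. Ranked with items not reported here included, so not exactly the genes named above, the 10 leading genes held 3.71% of the clusters at 1000 cells. The 10 leading genes of the 10000-cell list held 2.15% there.

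Genes that led at 10000 cells did not all stay in front. EIF4G3, a translation initiation factor, went from 684 clusters to 80, in proportion to the lists (0.939 times, 0.735 to 1.19). ROBO1, the SLIT2 receptor, went from 571 to 46 (0.647 times, 0.468 to 0.874), and TTC28, a long tetratricopeptide repeat gene, from 425 to 31 (0.586 times, 0.393 to 0.844). MYCBP2 went from 542 to 60 and MMS22L, a replication repair gene, from 398 to 39, both in proportion to the lists within their intervals.

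**Figure D1:**
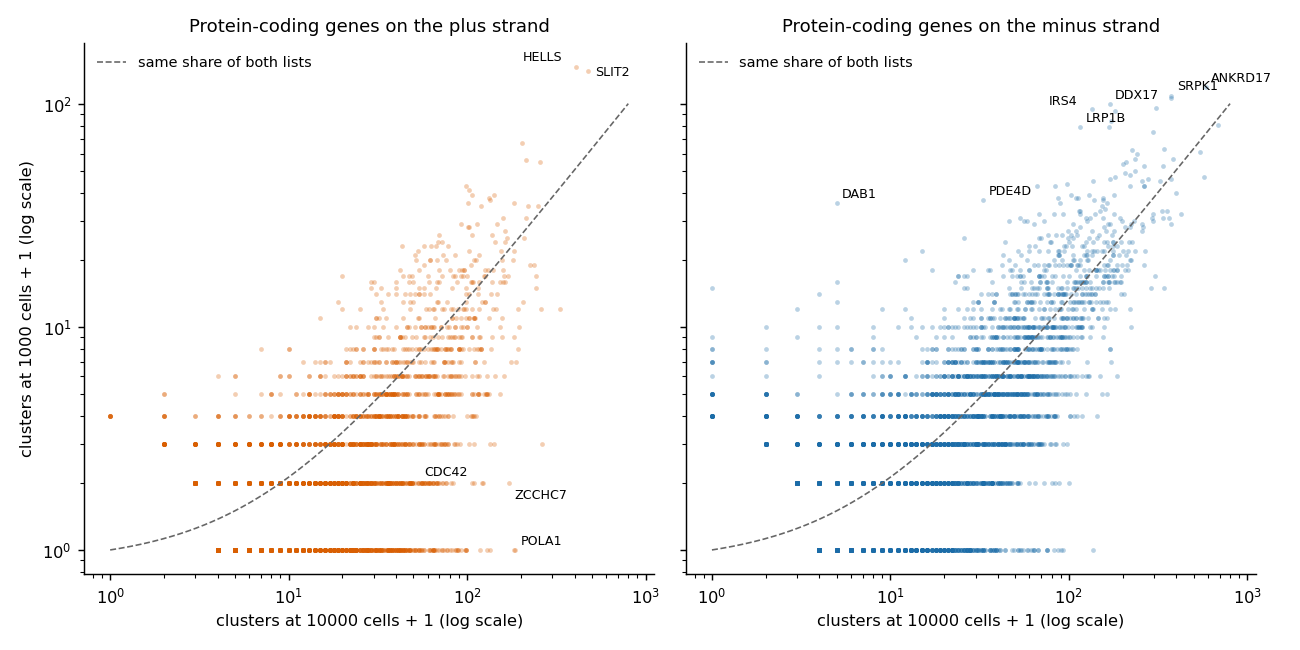
Clusters per protein-coding gene at 10000 cells (x axis) and at 1000 cells (y axis), each plus 1 on a log scale, for genes of the plus strand (left) and the minus strand (right) with at least 3 clusters in either list. The dashed line marks an equal share of both lists. Plus-strand genes lie below it more often, POLA1 with 185 clusters at 10000 cells and 0 at 1000 cells among them, and DAB1 and PDE4D lie far above it on the minus strand.

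For the 3584 genes with 20 or more clusters in the 2 lists together, the share of the list at 1000 cells was divided by that at 10000 cells. The share was at least 2 times higher at 1000 cells in 356 genes (9.93%) and at most 0.5 times as high in 1230 (34.3%), of which 397 held no cluster at 1000 cells. The median ratio was 0.743. Shares of a list add up to a whole, so a few genes that gained share lower all others. Genes met the limit of 20 clusters mostly through the longer 10000-cell list. Those near the limit hold few clusters at 1000 cells, where counting error alone can take a gene past the lower fold. With 50 or more clusters needed, 156 of 1590 genes passed the upper fold and 435 the lower one.

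The ratio moved with the length of the gene. In protein-coding genes under 10000 nt the median was 1.38, and 35.4% of them had at least 2 times the share at 1000 cells. The median was 1.0 from 10000 to 30000 nt, 0.73 from 30000 to 100000 nt and 0.642 from 100000 to 300000 nt. Among genes of 1000000 nt or longer the median was 0.73, and 6 of 21 (28.6%) still passed the upper fold. Over protein-coding clusters, the median length of the gene was 66882 nt at 1000 cells and 81013 nt at 10000 cells.

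Among the 10 genes with the highest ratios some were short and recurrent and some very long and scattered. POLE3, a small histone-fold subunit of DNA polymerase epsilon (chr9:113407235-113410749, minus strand), held 17 clusters at 1000 cells and 16 at 10000 cells, and all 17 overlapped one at 10000 cells. SIX2, a homeobox gene of kidney progenitors (chr2:45005182-45009452, minus strand), held 10 and 12, and all 10 overlapped. In these 2 short genes every 1000-cell cluster lay on a 10000-cell cluster, but not the reverse. Of the 10000-cell clusters, 7 of 16 in POLE3 and 3 of 12 in SIX2 overlapped one at 1000 cells. DPYSL2, a microtubule regulator, held 16 and 19 with 12 of the 16 overlapping, and HMGB1, a chromatin protein, 11 and 11 with 3 of the 11 overlapping.

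A further 5 were very long genes on the minus strand. DAB1, a reelin pathway adaptor of 1551949 nt, held 35 clusters at 1000 cells and 4 at 10000 cells (70.2 times, 25.1 to 272.0). PDE4D, a cyclic AMP phosphodiesterase, held 36 and 32, TBC1D5 24 and 25, PCDH9, a protocadherin, 21 and 14, and MAGI2, a scaffold protein, 19 and 11. Of the 135 clusters these 5 genes held at 1000 cells, 1 overlapped a cluster at 10000 cells, in PDE4D. DAB1 held 133 and 138 clusters at 100000 and 10000000 cells, and MAGI2 90 and 85. Their density at 1000 cells was low, 0.226 clusters per 10 kb in DAB1 and 0.132 in MAGI2, against the median of 0.532.

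The same held for the longest genes as a group. Protein-coding genes of 1000000 nt or longer had 412 clusters at 1000 cells, 84.7% of them on the minus strand (80.9 to 88.0), against 52.6% of 2196 at 10000 cells (50.5 to 54.7). Of the 412, 62 overlapped a cluster at 10000 cells (11.7 to 18.9%), and 275 (66.7%) overlapped none at 10000, 100000 or 10000000 cells. LRP1B, a giant lipoprotein receptor gene of 1899594 nt on the minus strand, had the most, 78 against 115, with 3 of the 78 overlapping. ROBO1, also on the minus strand, differed from it, with 24 of 46 overlapping (52.2%). The overlap fell with length throughout, from 72.1% in protein-coding genes under 10000 nt to 46.1% from 100000 to 300000 nt. The source of the scattered clusters in very long genes was not tested.

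In 986 genes a cluster was seen at 1000 cells and none at 10000 cells. Of these, 814 had 1 cluster and 54 had 3 or more, and 719 had a cluster at 100000 or 10000000 cells. AFAP1, an actin filament associated gene, had the most clusters of those with a known strand, 14 against 0, with a lower bound of 26.6 for the ratio of its shares. DLG2, ASTN2 and PDE11A, all long genes on the minus strand, held 8, 7 and 7.

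At the other end, 4464 genes with a cluster at 10000 cells had none at 1000 cells. POLA1, the catalytic subunit of the DNA polymerase that primes replication (chrX:24693918-24996986, plus strand), had the most, 185 clusters at 10000 cells, 685 at 100000 and 667 at 10000000. With 0 clusters at 1000 cells, the upper bound of its ratio of shares was 0.162. FOXP2, a forkhead transcription factor, held 181 at 10000 cells and 0 at 1000 cells, with an upper bound of 0.165. ZMYM2, a zinc finger protein, held 133, SPECC1L, a cytoskeletal crosslinker, 129, TTN-AS1 126 and PIBF1 117. MTHFD1, a folate enzyme, and PKN2 and PKP4 held 97 each. Genes that fell to 1 or 2 clusters included CMSS1 with 2 against 263, ZCCHC7, a subunit of the nuclear RNA surveillance complex, with 1 against 171 and CDC42, a small GTPase, with 1 against 120, all on the plus strand, and NUP54, a nucleoporin, with 1 against 99, ICE2 with 1 against 87 and IMMP1L with 1 against 83, all on the minus strand. Of the 10 genes with the lowest ratios and at least 1 cluster at 1000 cells, 7 are on the plus strand and 3 on the minus strand. With so few clusters the counting intervals are wide, from 0.00168 to 0.38 times for CDC42. PTBP1 itself held 25 clusters at 10000 cells and 0 at 1000 cells, and with so few the ratio's interval reaches 1.28, so a lower share was not detectable.

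**Figure D2:**
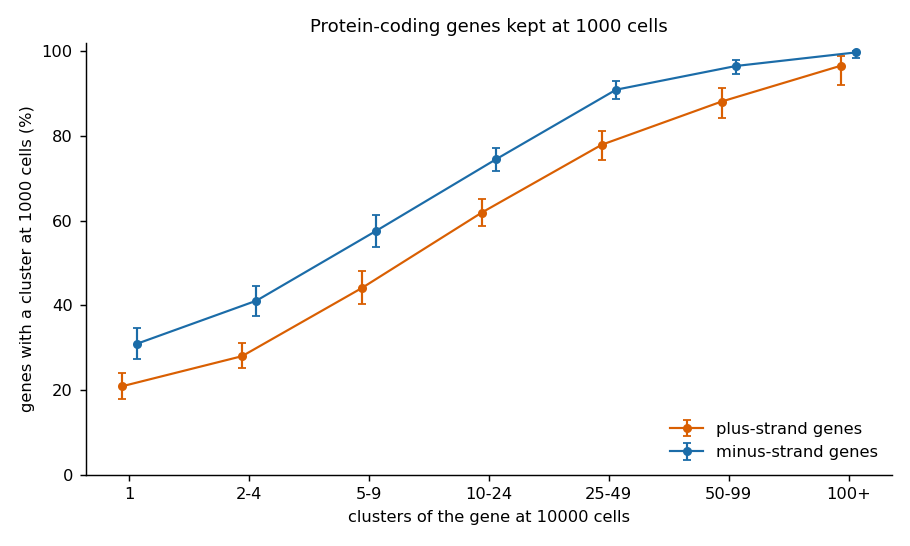
Share of protein-coding genes at 10000 cells that kept a cluster at 1000 cells (y axis, %), by the number of clusters of the gene at 10000 cells (x axis), for plus-strand genes (orange) and minus-strand genes (blue). Bars are exact binomial 95% intervals. The minus-strand share is higher in every bin, for example 90.9% against 77.9% for genes with 25 to 49 clusters.

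Protein-coding genes on the minus strand were kept more often than those on the plus strand in every bin of cluster number. A single cluster of any width was enough for a gene to count as kept. Of protein-coding genes at 10000 cells, 67.5% of those on the minus strand (3187 of 4724) and 51.2% of those on the plus strand (2174 of 4242) kept a cluster, against 59.3% of all protein-coding genes. With 25 to 49 clusters the shares were 90.9% (683 of 751) and 77.9% (478 of 614), and with 50 to 99 clusters 96.5% and 88.1%. Among genes with 40 or more clusters at 10000 cells, 85 of 686 on the plus strand (12.4%, 10.0 to 15.1) and 27 of 1109 on the minus strand (2.43%, 1.61 to 3.52) had none at 1000 cells. These plus-strand and minus-strand genes had similar lengths, with medians of 88707 and 83007 nt, and similar numbers at 10000 cells, with medians of 65 and 70 clusters. The share of the list at most 0.5 times as high at 1000 cells was reached by 47.4% of plus-strand and 25% of minus-strand protein-coding genes, beside 34.3% of all genes. Of the 10 genes with most clusters at 1000 cells, 7 are on the minus strand and 3, HELLS, SLIT2 and JPX, on the plus strand.

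Members of gene lists chosen by function were counted next. Of the 31 lists with 5 or more members at 10000 cells, 24 kept a larger share of their members than the 56.7% of all genes, the solute carriers by less than the rounding. The lists differ in how many clusters their members had to lose, so the median number of clusters per member at 10000 cells is given beside the counts, against 8 for all genes. Of all genes, 68.8% were kept with 10 to 24 clusters, 85.3% with 25 to 49 and 93.3% with 50 to 99. Members of a list spread over several of these bins, and most lists are small. A bin is therefore a rough guide and not a matched comparison.

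**Figure D3:**
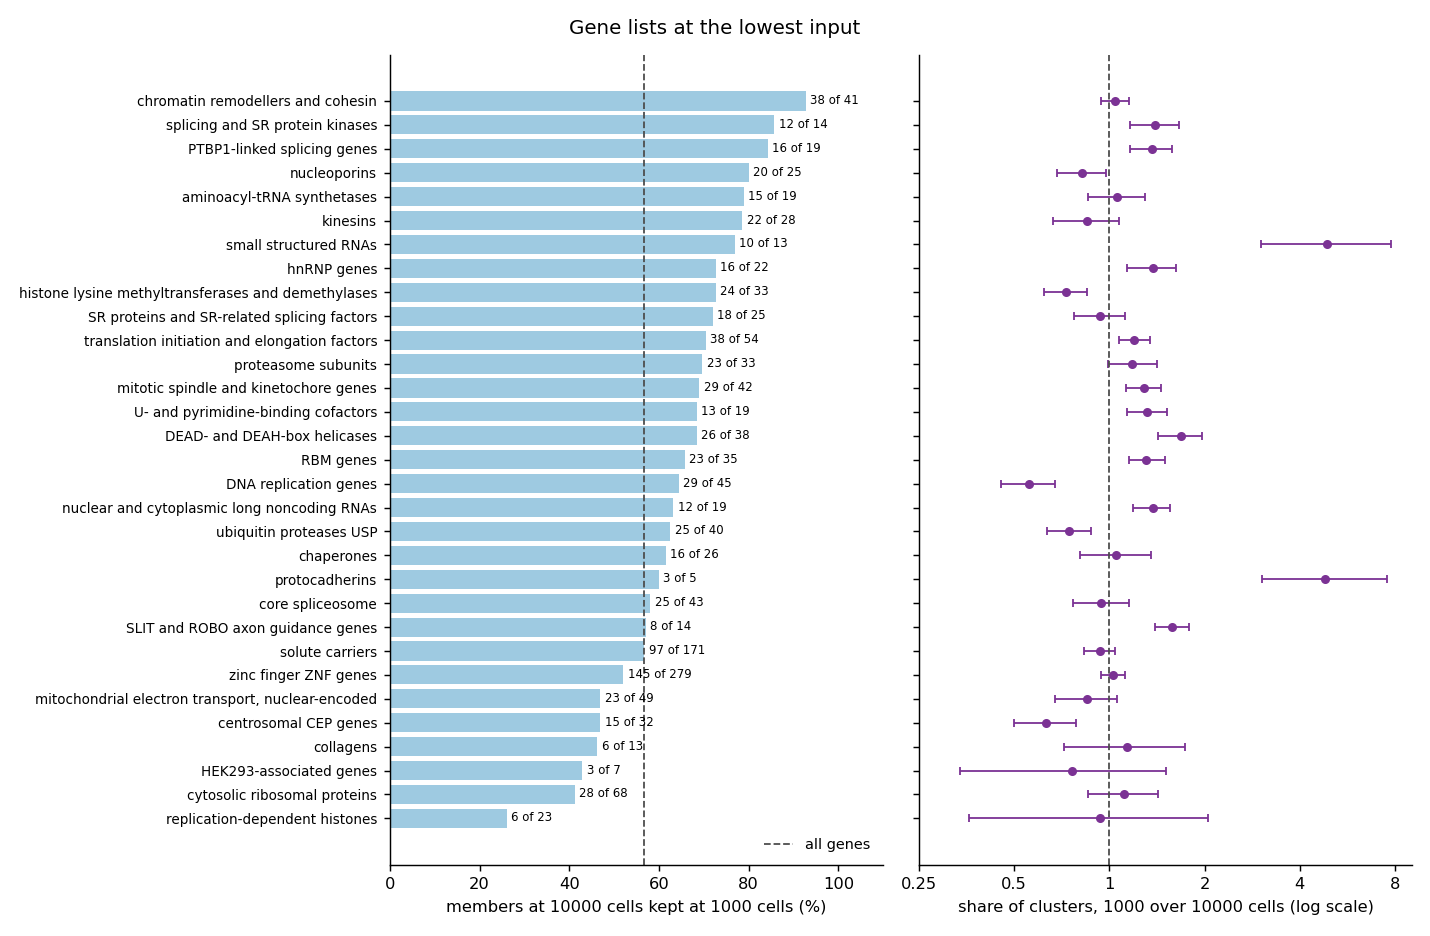
Left, share of each list's members with a cluster at 10000 cells that kept one at 1000 cells (%), with the counts, and the share of all genes as a dashed line at 56.7%. Right, the list's share of clusters at 1000 cells divided by that at 10000 cells on a log scale, with 95% counting intervals and a dashed line at 1. Chromatin remodellers kept 38 of 41 members and replication-dependent histones 6 of 23, and DNA replication genes lie below 1 on the right.

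Genes with splicing events linked to PTBP1 kept 16 of 19 members (84.2%), with a median of 64 clusters at 10000 cells. Of all genes with 50 to 99 clusters 93.3% were kept, but members of this list ranged outside that bin. PTBP2, the neuronal paralog, held 66 clusters at 1000 cells and 202 at 10000 cells, a share 2.62 times higher (1.96 to 3.48). PKM, a pyruvate kinase, held 38 and 128 (2.38 times, 1.61 to 3.45), and CASP2, a caspase with a regulated exon, 28 and 92 (2.44 times, 1.54 to 3.77). The other paralog, PTBP3, held 3 and 75, a share 0.321 times as high (0.0648 to 0.975). NUMB, an endocytic adaptor, held 10 and 119, and KIF1B, a kinesin, 5 and 84. Of the 15 members with 20 or more clusters, 3 passed the upper fold and 5 the lower one, so the list as a whole held 1.36 times its share (1.16 to 1.58) while its median gene stood at 0.823.

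Lists of genes that encode splicing regulators kept shares above that of all genes, and also had more clusters at 10000 cells than the median gene. hnRNP genes kept 16 of 22 members (72.7%, median 24 clusters) and splicing kinases 12 of 14 (85.7%, median 27). The value for the kinases was near the 85.3% of all genes with 25 to 49 clusters. SR proteins and related factors kept 18 of 25 (72.0%, median 36). Genes of other U- and pyrimidine-binding cofactors kept 13 of 19 (68.4%, median 47). Members of both lists ranged outside the bin of 25 to 49 clusters, so the 85.3% there is not a matched value. HNRNPA2B1 held 35 clusters at 1000 cells and 88 at 10000 cells (3.19 times, 2.09 to 4.77), and HNRNPC, which binds runs of U, 35 and 163 (1.72 times, 1.16 to 2.5). CELF1 held 59 and 241, MATR3, a nuclear matrix protein and partner of PTBP1, 37 and 131, and SRSF11 36 and 133, all with intervals above 1. Several genes of the same lists went the other way. RBFOX2, a splicing regulator, held 7 and 169 (0.333 times, 0.132 to 0.7), TRA2B 4 and 100 (0.321 times, 0.0858 to 0.848), and QKI and SCAF4 held 87 and 66 at 10000 cells and 0 at 1000 cells. Among splicing kinases SRPK1 held 108 of the list's 152 clusters at 1000 cells. The core spliceosome kept 25 of 43 members (58.1%, median 13), near the share of all genes. SF3B4, a subunit of the U2 particle, held 17 and 46 there, and EFTUD2, a U5 GTPase, 0 and 89.

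Chromatin remodellers and cohesin genes kept the most, 38 of 41 members (92.7%), with a median of 55 clusters at 10000 cells. That was near the 93.3% of all genes with 50 to 99 clusters. STAG1, a cohesin subunit, held 56 and 382 clusters and SMARCC1, a core SWI/SNF subunit, 44 and 325, both in proportion to the lists within their intervals. STAG2, the X-linked paralog of STAG1, held 6 and 175 (0.275 times, 0.0997 to 0.611), and ARID2 4 and 128 (0.251 times, 0.0673 to 0.658). STAG2 and ARID2 are on the plus strand, STAG1 and SMARCC1 on the minus strand. Of 33 members with 20 or more clusters, 12 passed the lower fold and HELLS the upper one.

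DNA replication genes kept 29 of 45 members (64.4%, median 17 clusters at 10000 cells) but lost share. Their clusters fell from 1601 to 111, 0.557 times their share (0.455 to 0.675), with a median of 0.479 over 24 genes, of which 12 passed the lower fold, beside 34.3% of all genes. RFC3, a clamp loader subunit, held 11 and 259 (0.341 times, 0.168 to 0.62), POLA1 0 and 185, and ORC4, of the origin recognition complex, 4 and 109 (0.295 times, 0.0789 to 0.776). POLD3 held 1 and 56. RRM2, a ribonucleotide reductase subunit, held 11 and 80, close to the proportion of the lists. Centrosomal CEP genes also lost share, at 0.629 times (0.498 to 0.786), and kept 15 of 32 members (46.9%, median 12), fewer than the 56.7% of all genes. CEP350 held 4 and 115 and CEP164 0 and 63. Of the members at 10000 cells, 42.2% of the replication genes and 43.8% of the CEP genes were on the minus strand. Lists that gained share varied in this. The value was 42.9% for SLIT and ROBO guidance genes (1.58 times their share) and 44.7% for DEAD- and DEAH-box helicases (1.68 times). It was 63.2% for the PTBP1-linked splicing genes (1.36 times). A link between the strand of a list's members and its share was not tested.

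Mitotic genes kept 29 of 42 members (median 24.5) with 1.29 times their share (1.13 to 1.46). CENPK, a kinetochore subunit, held 92 of the 273 clusters at 1000 cells and 180 of the 1704 at 10000 cells (4.1 times, 3.16 to 5.3). PRC1, which bundles spindle microtubules, held 21 and 87, while NUF2 held 2 and 77. Among the SLIT and ROBO guidance genes 8 of 14 were kept (median 20), and SLIT2, ENAH and ROBO1 held 281 of the 304 clusters at 1000 cells. DEAD- and DEAH-box helicases kept 26 of 38 (median 18.5) and held 1.68 times their share (1.43 to 1.97), with 99 of 193 clusters in DDX17.

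Ribosomal protein, electron transport and histone genes kept smaller shares than all genes. Of all genes, 34.5% were kept with 2 to 4 clusters at 10000 cells and 50.8% with 5 to 9. Whether the function of these lists mattered beyond their number of clusters was not tested. Cytosolic ribosomal protein genes kept 28 of 68 members (41.2%), with a median of 4.5 clusters at 10000 cells, although their share of the list was not lower (1.11 times, 0.858 to 1.43). RPL26 held 15 and 36 clusters and RPL36A 0 and 21. Nuclear genes of mitochondrial electron transport kept 23 of 49 members (46.9%, median 8), such as NDUFA10 with 17 and 206, and replication-dependent histones 6 of 23 (26.1%), with a median of 2 clusters. Translation initiation and elongation factors kept 38 of 54 (median 14.5), led at 1000 cells by EIF4G3 and by EIF2S3, a subunit of the initiator tRNA carrier, with 42 and 98 (3.44 times, 2.34 to 4.99). Nucleoporins kept 20 of 25 (80.0%, median 41) and aminoacyl-tRNA synthetases 15 of 19 (78.9%, median 22). Kinesins kept 22 of 28 (78.6%, median 16) and proteasome subunits 23 of 33 (69.7%, median 19). NUP54 held 1 and 99 and PSMD14 4 and 126, against NUP153 with 14 and 141 and PSME3 with 22 and 56.

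By class of gene, protein-coding genes held 91.0% of clusters at 1000 cells (90.6 to 91.3) and 93.5% at 10000 cells (93.4 to 93.6). Long noncoding genes held 4.65% (4.42 to 4.89) and 3.42% (3.35 to 3.49), pseudogenes 0.903% and 0.662%, small RNA genes 0.404% (0.337 to 0.482) and 0.154% (0.139 to 0.17), and positions outside genes 3.08% and 2.25%. Every class other than protein-coding genes thus took a larger share at 1000 cells. By genes the order was the reverse, with 59.3% of protein-coding genes kept, 36.1% of long noncoding genes (273 of 756), 39.9% of pseudogenes and 36.4% of small RNA genes. The classes also differ in their median number of clusters at 10000 cells, 10 for protein-coding genes, 2 for long noncoding genes and pseudogenes and 1 for small RNA genes. At like counts the order varied. With 1 cluster 17.3% of long noncoding (13.4 to 21.8) and 25.1% of protein-coding genes (22.9 to 27.4) were kept. With 10 to 24 clusters 72.0% of long noncoding (60.9 to 81.3) and 68.5% of protein-coding genes (66.4 to 70.6) were kept, intervals that overlap, and with 2 to 4 clusters 52.6% of small RNA (40.9 to 64.0) and 34.2% of protein-coding genes (32.0 to 36.6). The 1438 clusters of long noncoding genes at 1000 cells lay in 509 genes. FTX, JPX, MIR924HG with 62 clusters, and MIR222HG and PURPL with 48 each together held 360 of them. The share of the list was 3.21 times higher for PURPL (2.25 to 4.52), 2.15 times for MIR222HG, the host of a microRNA pair, and 0.922 times for MIR924HG (0.697 to 1.2).

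Small RNAs gave the most repeatable positions. Of their clusters at 1000 cells, 113 (90.4%, 83.8 to 94.9) overlapped one at 10000 cells, against 56.2% in protein-coding genes and 41.0% outside genes. RPPH1, the RNA of RNase P, held 7 clusters at 1000 cells and 11 at 10000 cells, RMRP, the RNA of RNase MRP, 5 and 6, and RNU2-2, a U2 spliceosomal RNA, 6 and 4, and all of these 1000-cell clusters overlapped. Transfer RNA genes with a cluster numbered 25 and 45, snoRNA genes 24 and 85, snRNA genes 12 and 14 and microRNA genes 1 and 20. The listed small structured RNAs kept 10 of 13 members (median 3) with 4.88 times their share (3.02 to 7.77). Many of these RNAs have near-identical copies, as do the pseudogene STAG3L2 and the ribosomal RNA gene RNA28SN2, and reads could be split among copies in ways the lists do not show.

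Clusters lay nearer to the 3′ ends of genes at the lower input. In protein-coding genes of known strand, the last 2000 nt held 12.1% of clusters at 1000 cells (11.7 to 12.5) and 9.36% at 10000 cells (9.24 to 9.48). The first 2000 nt held 6.5% (6.21 to 6.8) and 5.38% (5.29 to 5.47), so both ends gained. With each gene divided into 10 equal parts the lists were close, with 13.4% and 13.5% of clusters in the 5′-most part and 16.7% and 15.8% in the 3′-most part. In genes of 20000 nt or longer the last 2000 nt held 7.35% and 6.48%. The difference over all genes, 12.1% against 9.36%, accompanied the larger share of clusters in short genes, where 2000 nt is a larger part of the gene: genes under 10000 nt held 5.66% of protein-coding clusters at 1000 cells and 3.85% at 10000 cells.

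**Figure D4:**
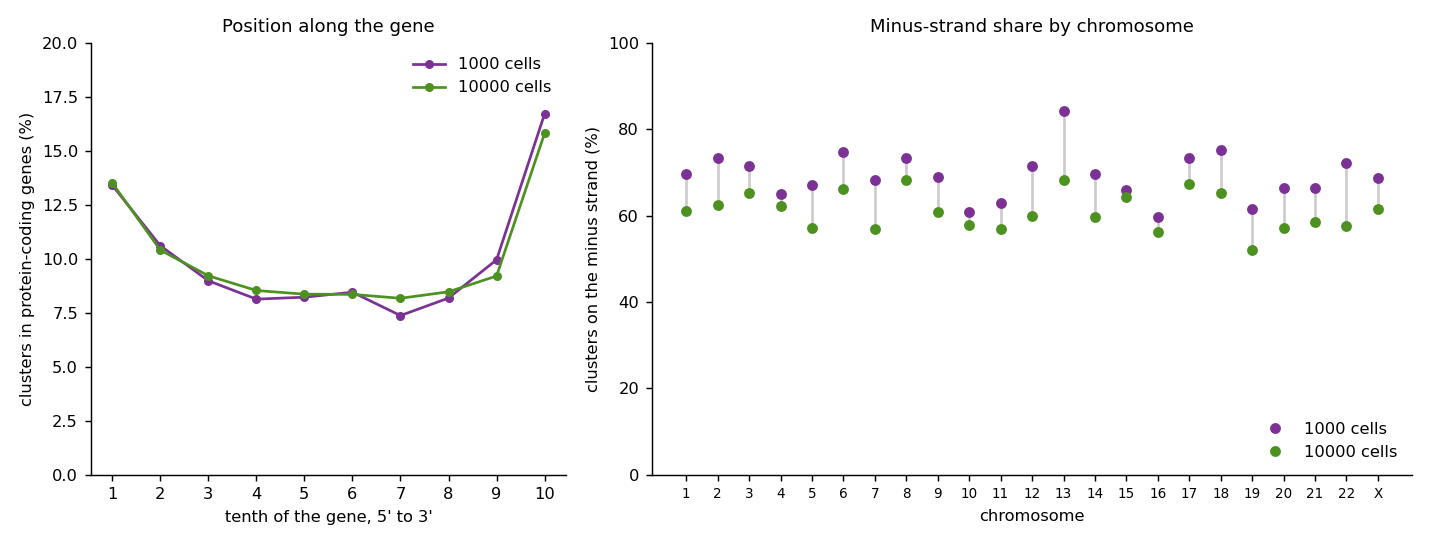
Left, share of clusters in protein-coding genes (%) by position, with each gene divided into 10 equal parts from the 5′ to the 3′ end, at 1000 cells (purple) and 10000 cells (green). Right, share of clusters on the minus strand (%) by chromosome for the same lists. The profiles along the gene nearly coincide, with 16.7% and 15.8% in the 3′-most part, and the minus-strand share is higher at 1000 cells on all 23 chromosomes.

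DDX17 had the most clusters in its last 2000 nt at 1000 cells, 48 of 99, beside 77 of 168 at 10000 cells. IRS4 had 36 of 94 there and 47 of 134. VAMP2, a synaptobrevin, had all 29 of its clusters in this stretch at 1000 cells and 43 of 45 at 10000 cells. KHSRP, an RNA-binding protein of AU-rich elements, had 28 of 31 and 60 of 67. CASP2 had 24 of 28 (85.7%) at 1000 cells and 54 of 92 (58.7%) at 10000 cells. PLS3, an actin bundling protein, had 24 of 38 and 37 of 105, and PSMD11, a proteasome subunit, 18 of 19 and 35 of 75. In these last 3 genes the end held a larger part of the clusters at 1000 cells. It held a smaller part there in HOXB8 (60.0% against 73.1%) and PSME3 (86.4% against 92.9%). All these genes were ranked by their 1000-cell count in this stretch. Clusters of the last 2000 nt also recurred more often, with 81.7% of them (80.3 to 83.0) overlapping one at 10000 cells, against 53.0% (52.3 to 53.6) in the rest of the gene.

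On the minus strand lay 69.3% of clusters at 1000 cells (68.8 to 69.8) and 61.2% at 10000 cells (61.1 to 61.4). Plus-strand clusters numbered 9495 and 96168, or 9.87%, and minus-strand clusters 21416 and 152000, or 14.1%. The difference was seen on 23 of 23 chromosomes, from 1.4 percentage points on chromosome 15 to 16.0 on chromosome 13, where the shares were 84.3% and 68.3%. It was seen in protein-coding genes (69.1% and 61.3%) and outside genes (67.1% and 54.0%). Few clusters lay antisense to a gene and in no other, 0.485% at 1000 cells and 0.38% at 10000 cells.

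The difference between the lists was largest among the narrowest clusters, and over clusters of 5 nt or wider the minus-strand shares were 63.8% (63.1 to 64.5) and 61.4% (61.1 to 61.6). Among clusters of 3 nt, 71.6% (70.6 to 72.5) were on the minus strand at 1000 cells and 52.5% (52.1 to 52.9) at 10000 cells. At 5 nt the shares were 67.9% (66.7 to 69.0) and 68.2% (67.8 to 68.7). At 6 nt they were 62.3% (61.2 to 63.5) and 58.6% (58.2 to 59.0), with intervals apart. At 10 to 14 nt they were 58.8% (55.9 to 61.7) and 60.0% (59.3 to 60.7), and at 15 to 29 nt 60.5% and 57.5%, with intervals that overlap. Clusters of 4 nt stood apart in all 4 titration lists, with 89.7% on the minus strand at 1000 cells, 81.0% at 10000 cells, 84.6% at 100000 cells and 80.2% at 10000000 cells. Such clusters made up 16.1% of minus-strand and 4.18% of plus-strand clusters at 1000 cells, and 11.9% and 4.43% at 10000 cells. The strands thus differed in cluster width within each list. Recurring clusters had a minus-strand share of 66.4% at 1000 cells and 66.5% at 10000 cells. They were matched on the same strand, so these near-equal shares largely follow from the matching. Those that did not recur differed, with 72.9% on the minus strand at 1000 cells and 60.9% at 10000 cells. The cause of the difference between strands was not tested.

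Of the 1000-cell clusters, 17127 of 30911 shared at least 1 nt with a 10000-cell cluster on the same strand, or 55.4% (54.9 to 56.0). In the other direction 14971 of 248168 did so, or 6.03% (5.94 to 6.13). On the opposite strand the overlap was 0 of 30911, with an upper bound of 0.0119%. Opposite-strand overlap was as rare within a list, at 2 of 248168 clusters in the 10000-cell list.

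Recurrence rose steeply with width. Of 3-nt clusters at 1000 cells 39.6% (38.6 to 40.6) overlapped the 10000-cell list, of those of 10 to 14 nt 95.3%, and of those of 30 nt or more all 61. Of the 10000-cell clusters 1.25% were seen again at 3 nt and 81.8% (1577 of 1928) at 30 nt or more. Wider clusters present more bases to overlap. Recurrence also rose with the number of neighbours, with 37.9% of 1000-cell clusters that had no neighbour within 100 nt overlapping one at 10000 cells, 79.9% of those with 1 or 2 neighbours and 96.8% of those with 6 or more.

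At the scale of 1000-nt bins, 809 bins had 5 or more clusters at 1000 cells, and 808 of these had a cluster at 10000 cells. Of the 742 bins with 20 or more at 10000 cells, 695 (93.7%) had one at 1000 cells. Over all bins the shares were lower. Of the 20158 bins with any cluster at 1000 cells, 68.5% had one at 10000 cells. Of the 87987 with any at 10000 cells, 15.7% had one at 1000 cells. The densest bin lay inside CENPK (chr5:65555001-65556000) with 33 clusters at 1000 cells and 43 at 10000 cells, and another bin of CENPK held 25 and 28. DDX17 had 29 and 40 in one bin near its 3′ end (chr22:38484001-38485000), FKBP11, a folding enzyme of the secretory pathway, 27 and 25, VAMP2 25 and 22, and NUCKS1, a nuclear DNA-binding protein, 24 and 37. In these bins the counts of both lists were closer than their lengths, the 10000-cell list being 8.03 times as long. The bins were ranked by their count at 1000 cells, so this closeness follows in part from the choice. Other bins of the ranking were less close, such as those in PROSER1 with 21 and 43 and CELF1 with 17 and 38.

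Clusters of the 1000-cell list that did not recur at 10000 cells lay at widely spread distances from the nearest one there. Of these 13784, 32.7% had a 10000-cell cluster within 50 nt, and 19.1% had none within 10000 nt. The median distance was 323 nt, with quartiles of 24 and 4616 nt. Of the same 13784, 39.6% (38.8 to 40.5) overlapped a cluster at 10000000 cells, against 97.1% (96.8 to 97.3) of the recurring ones. In all, 7313 of the 30911 clusters (23.7%) overlapped none of the other 3 lists. That share was 31.4% for clusters of 3 or 4 nt and 1.83% for those of 10 nt or more, and 25.7% on the minus strand against 19% on the plus strand.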

How the data were processed

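PTBP1 binding was measured by uSpyCLIP-seq in 2 libraries each at 1000 and 10000 cells, with 1 deposited cluster list per group. Per the submitters' processing notes, reads were processed with Trim Galore 0.0.6 and STAR 2.7.9a on hg38. The caller, its thresholds, duplicate removal and pooling were not given in the sources used here. Chromosome, start, end and strand are what the authors deposited, with no measured value. Positions are printed here with the first base as 1.

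A cluster was assigned by its midpoint to a RefSeq gene span of GRCh38.p14 that did not lie on the opposite strand. Small RNA genes took precedence, then protein-coding, long noncoding and pseudogenes, and shorter genes before longer ones. Gene strand came from RefSeq tables for 29079 of 59679 genes and otherwise from the 10000000-cell list (3198 genes, at least 3 clusters and 90% on 1 strand). Where both gave a strand, they were the same for 96.6% of 8542 protein-coding genes and 88.9% of all 10111 genes, so the agreement is lower in other classes. Sequences are from RefSeq promoter windows. No genome sequence or exons were used, so introns and exons are not parted.

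Overlap means at least 1 nt on the same strand. A share of the list was compared as the ratio of 1000 to 10000 cells in genes with 20 or more clusters, with fold limits of 2 and 0.5, and intervals condition on the total of both lists. Genes were named as the 10 with most clusters at 1000 cells, the 10 with the highest and the lowest ratios, the 10 strongest with none at 1000 cells, the leading noncoding genes and up to 8 members of each gene list. The leaders at 10000 cells, the genes of 1000000 nt or longer, the genes seen at 1000 cells alone, those of the 3′ end and the densest bins were added after values were seen, and PTBP1 was named as the captured protein. The members and gene lists were chosen with earlier results of these data known. The assignment, overlap and strand code was tested on simulated data, with 0 wrong answers in 6 steps of 1000 simulated sites each. Tools were Python 3.11.15, numpy 2.4.6, pandas 2.3.3, scipy 1.17.1 and matplotlib 3.10.9. Some items are not reported here.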

Additional observations from a re-analysis of the deposited data

How the results depend on the processing

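No paired analysis was possible because each group has 1 list for its 2 libraries, so neither a replicate block nor leaving out a replicate could be run. The lists' lengths stood within 1.5 times when clusters within 20 nt were joined (26548 and 174178 sites), and restricting to 5 nt or wider left 18143 clusters at 1000 cells and 172925 at 10000 cells. With 3 clusters needed for a gene to count as held, 35.6% of genes were kept in place of 56.7%, and 18 of 30 function lists lay above the share of all genes in place of 24 of 31, with 25 of 30 on the same side under both. The other 5 went from above the share of all genes to below it: DNA replication genes (64.4% to 31.8%), kinesins (78.6% to 34.8%), chaperones (61.5% to 30.4%), the core spliceosome (58.1% to 35.1%) and solute carriers (56.7% to 30.8%). With 50 or more clusters needed for the ratio of shares, 156 genes passed the upper fold and 435 the lower one, of 1590 tested. Without regard to strand, protein-coding genes held 91.7% and 94.1% of clusters at 1000 and 10000 cells. The 3′ end share was higher at 1000 cells under every alternative run, with 6.83% against 5.32% for the last 1000 nt, 21.7% against 17.9% for the last 5000 nt and 7.35% against 6.48% in genes of 20000 nt or longer. The minus-strand share was 61.3% against 53.2% when counted per gene. It was 69.4% against 60.8% without the 10 leading genes, ranked with items not reported here included. At 5 nt or wider, an alternative chosen after seeing the data, the minus-strand share was 63.8% against 61.4%, a smaller difference than the 69.3% against 61.2% over all widths. The overlap of 1000-cell clusters was 52.4% when 0.5 of the shorter cluster had to be shared, 63.6% within 10 nt, 0.912% for identical ends and 60.8% at 5 nt or wider. In the reverse direction these were 5.62%, 9.48%, 0.114% and 5.6%. Unknown depth limits every count of lost clusters and genes.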
